A study of Homo sapiens with 12 samples.

Results

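Bag-1L KO LNCaP cells were compared with control LNCaP cells in the absence of androgen, using the 4 RNA-seq samples whose labels give hormone starvation and vehicle, out of 12 samples in all. LNCaP is an established human prostate cancer line that depends on androgen. The control cells (labelled LN Talen Ctr) and the KO cells (labelled LN Talen Bag-1L KO) were both starved of steroid hormones for 72 h, in medium whose serum had been treated with charcoal, and then received ethanol (EtOH), the vehicle, for 16 h. Each line had 2 replicates, and the other 8 samples were the same lines after 10 nM dihydrotestosterone (DHT) for 16 h or in full medium (FM). The KO line had been made with a TALEN, an engineered nuclease directed at the first codon of Bag-1L, followed by the isolation of single clones, and the control line was a vector control. Loss of Bag-1L and other differences between the cloned KO line and its control cannot be told apart in this design. The labels number the replicates without saying that they were separate cultures. The p-values thus measure a spread, shared over the replicates of all 12 samples, which may be technical.

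The BAG1 gene gives rise to several proteins that share a BAG domain, through which they bind the ATPase domain of HSP70 and HSC70 chaperones and promote nucleotide exchange. Bag-1L is the longest of them, starts at a CTG codon upstream of the AUG codons used by the shorter forms, is largely nuclear and is known as a cochaperone and coactivator of transcription. In hormone-starved LNCaP cells androgen-induced genes are low, and proliferation slows.

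The 4 samples held between 20826843 and 25665927 gene counts each, and 3 counts, the floor of detection used here, equal 0.117 to 0.144 CPM (counts relative to the total of the library), a limit that covers counting error only. Gene positions below are on GRCh37. The control replicates lay far apart. Over the 11374 genes whose normalized counts averaged 100 or more, the median absolute log2 difference between replicates was 0.238 in control and 0.083 in KO. In control this difference ran with GC content (Spearman's rho 0.35 across genes) and against transcript length (rho -0.26), whereas in KO the values were 0.00 and 0.18. The genes are not independent replicates, and these correlations are descriptions. Because of this distance, results are given below also without control replicate 1 and without control replicate 2, each fit leaving a single control sample that is assumed to vary like the other groups. Replicates of the DHT and FM groups were closer, with medians between 0.076 and 0.172. The tests used a spread shared by all groups, so their p-values may be too small for comparisons with these controls. As for identity, the 9 prostate luminal markers, among them KLK3, FOLH1, KRT8 and HOXB13, summed to between 2889 and 2933 CPM in control and between 3105 and 3137 CPM in KO, and none was below 34.2 CPM. Leukocyte markers (5 genes) summed to at most 0.685 CPM, and 5 basal markers to between 3.19 and 4.19 CPM in control and between 8.33 and 9.31 CPM in KO, nearly all of it DSC3, with KRT5, KRT14 and TP63 at no more than 5 counts in any sample. Neuroendocrine markers (5 genes) summed to between 3.43 and 5.13 CPM, the 3 endothelial markers matched to between 5.69 and 8.22 CPM, mostly VWF, and 7 fibroblast and smooth muscle markers to between 44.2 and 50.6 CPM in control and between 34.4 and 35.9 CPM in KO, mostly COL1A1 and ACTA2. What part these few transcripts of other cell types have in the results was not tested.

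The targeted gene was examined first. The window below, read from GRCh37, shows what sets Bag-1L apart from the shorter proteins: the CTG start of Bag-1L at chromosome 9, 33264670 to 33264672 on the minus strand and, downstream of it in the same frame, the first ATG, codon 72 counted from that CTG. Both codons are in capitals, and the window covers chr9:33264403-33264702. The next start codon that the annotation gives, codon 116, lies beyond the window at 33264325 to 33264327.
BAG1 start region: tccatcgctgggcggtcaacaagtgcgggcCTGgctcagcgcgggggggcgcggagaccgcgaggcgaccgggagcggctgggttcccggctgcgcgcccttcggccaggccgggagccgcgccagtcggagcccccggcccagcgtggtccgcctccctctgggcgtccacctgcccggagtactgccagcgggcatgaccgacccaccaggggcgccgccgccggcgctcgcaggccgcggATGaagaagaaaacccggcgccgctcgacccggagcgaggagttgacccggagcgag
BAG1 (ENSG00000107262, chromosome 9, 33247818 to 33264718, minus strand) had normalized counts of 1701 and 2703 in control and 1191 and 1103 in KO. Both KO samples lay below both controls, but the controls differed from each other by more than the lower of them differed from the KO samples. The gene fell in KO (log2 fold change -0.94, standard error 0.18, adjusted p = 6.35e-06; DESeq2, Benjamini-Hochberg adjustment). Without control replicate 2 the value was -0.57, under the 1.5-fold minimum, and without control replicate 1 it was -1.24. Counts are summed over the whole gene, so they do not separate the mRNA parts that encode Bag-1L from those of the shorter forms and are no measure of the protein. The other 5 members of the family, BAG2 to BAG6, had log2 fold changes between -0.19 and 0.21, and none of them passed.

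Differences between the lines were spread over many genes. Genes passed with an adjusted p of 0.05 or less together with a change of 1.5-fold or more, and 844 of 16521 genes tested did so (5.11%), 463 of them higher in KO (2.8%) and 381 lower (2.31%). Of these, 209 were higher and 132 lower by 2-fold or more, and 38 and 32 by 4-fold or more. By type, 713 were protein-coding genes and 73 were long noncoding RNAs. In 843 of the 844 both KO samples lay on one side of both controls. The calls were made on these same samples, so this is no separate support for them. The share over all genes tested is not given here. The median log2 fold change over all genes tested was -0.01. Without control replicate 1, 714 genes were higher (5.11% of 13985 tested) and 716 lower (5.12%). Without control replicate 2 these were 393 (2.71% of 14493) and 335 (2.31%). In all, 549 genes passed without KO replicate 1, 483 without KO replicate 2 and 506 in a fit of the 4 EtOH samples alone. The number that passed in the same direction with all samples and with each control left out in turn was 419. The same contrast passed for 7.98% of genes in DHT and 8.01% in FM.

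**Figure D1:**
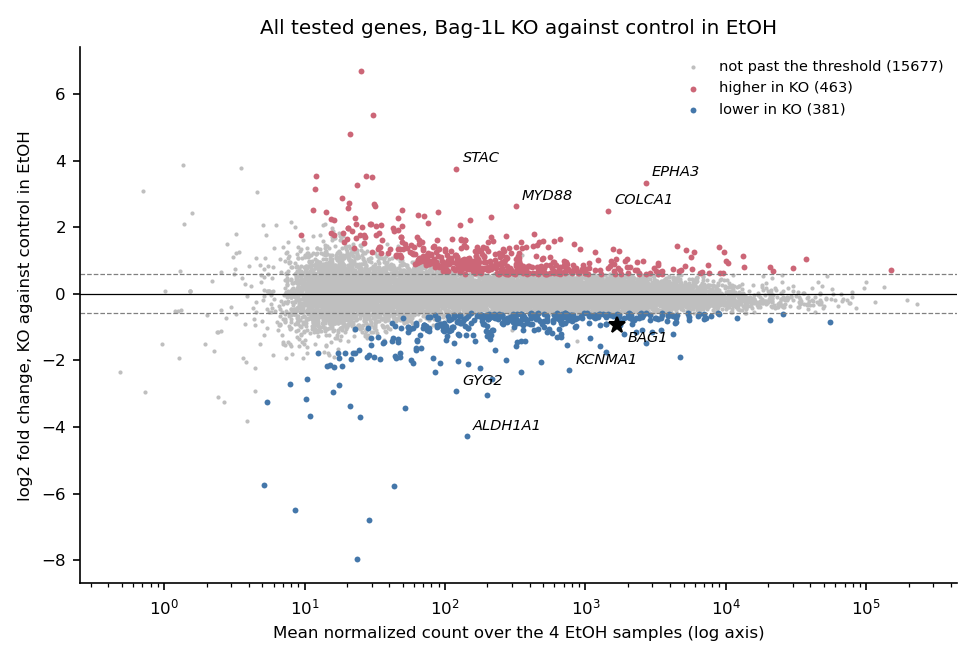
Each point is 1 of the 16521 genes tested, with its mean normalized count over the 4 EtOH samples on a log axis and its log2 fold change, KO against control, on the vertical axis. Dashed lines mark the 1.5-fold minimum, and the 463 higher and 381 lower genes are coloured; EPHA3 and COLCA1 stand out among well-expressed genes, and BAG1 is the star.

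Genes were ranked that had passed, with normalized counts averaging 100 or more and both KO samples on one side of both controls. Among them, the 15 largest rises spanned log2 fold changes of 1.61 to 3.76. The largest was that of STAC (ENSG00000144681, chromosome 3, 36421995 to 36589499), an adaptor of voltage-gated calcium channels, with normalized counts of 17.1 and 15.9 in control and 231 and 217 in KO (log2 fold change 3.76, standard error 0.37, adjusted p = 1.38e-21). EPHA3 (ENSG00000044524, chromosome 3, 89156771 to 89531284), a receptor tyrosine kinase for ephrin-A ligands, had 539.6 and 429.7 in control and 4683 and 5099.8 in KO (log2 fold change 3.33, standard error 0.14, adjusted p = 5.85e-122). For both genes the replicates of a line were close together and the lines were far apart. Counts of MYD88 (ENSG00000172936, chromosome 3, 38180043 to 38184515), the adaptor through which Toll-like and interleukin-1 receptors reach NF-kB, came to 91.4 and 84.6 in control and 564 and 531 in KO (log2 fold change 2.64, standard error 0.17, adjusted p = 9.9e-50). COLCA1 (ENSG00000196167, chromosome 11, 111161512 to 111176223) had 475 and 399.9 in control and 2397 and 2544 in KO (log2 fold change 2.50, standard error 0.16, adjusted p = 3.09e-49). In each of these 4 genes the lowest KO sample was more than the sum of both controls.

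Other rises included genes of signalling and of neural function. DAPK1, a calmodulin-regulated kinase linked to cell death, had 65.7 and 69.6 in control and 208 and 207 in KO (log2 fold change 1.62, standard error 0.30). Normalized counts of PTPRR, a phosphatase that acts on MAP kinases, came to 50.4 and 47.7 in control and 225 and 188 in KO (log2 fold change 2.07, standard error 0.29). CACNA1H, a T-type calcium channel subunit, had 209 and 181 in control and 595 and 745 in KO (log2 fold change 1.78, standard error 0.17). The groups were apart for all 3 genes, which the choice of genes required. SNCG, gamma-synuclein, had 234 and 409 in control and 1027 and 981 in KO (log2 fold change 1.64, standard error 0.22), and its controls differed more than its KO samples did. VEGFB, a ligand of VEGF receptor 1, had 51.4 and 73.6 in control and 199 and 195 in KO (log2 fold change 1.66, standard error 0.27). The rises of LUZP2, SPOCK2, a secreted proteoglycan, SLC6A19, a neutral amino acid transporter, TNFAIP3 and LINC00886 had log2 fold changes of 2.29, 1.74, 1.69, 1.63 and 1.61. FAR2P1 (2.21) is a pseudogene with near-identical copies, which makes its counts uncertain.

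The 15 largest falls spanned -1.57 to -4.28. ALDH1A1 (ENSG00000165092, chromosome 9, 75515587 to 75695358), a retinaldehyde dehydrogenase that makes retinoic acid and is used as a marker of stem-like tumour cells, had 271 and 269.6 in control and 17.0 and 11.3 in KO (log2 fold change -4.28, standard error 0.31, adjusted p = 3.58e-39). PHLDB2 (ENSG00000144824, chromosome 3, 111451344 to 111695364), which anchors microtubules at the cell cortex, had 399.7 and 313 in control and 43.0 and 44.2 in KO (log2 fold change -3.03, standard error 0.21, adjusted p = 3.52e-43). Normalized counts of GYG2 (ENSG00000056998, chromosome X, 2746863 to 2800859), a primer of glycogen synthesis, came to 216 and 205 in control and 32.8 and 23.5 in KO (log2 fold change -2.92, standard error 0.30, adjusted p = 1.27e-19). The controls agreed closely in ALDH1A1 and GYG2, and both KO samples were far below them. ACTA2, smooth muscle actin, had 374 and 368 in control and 78.0 and 49.9 in KO (log2 fold change -2.55, standard error 0.22). KCNMA1 (ENSG00000156113, chromosome 10, 78629359 to 79398127), the pore-forming subunit of the large-conductance calcium-activated potassium channel, had 1382 and 1166 in control and 231 and 284 in KO (log2 fold change -2.30, standard error 0.14, adjusted p = 2.08e-54). ATP1B1, the beta subunit of the sodium pump and the most abundant of the 15, had 7168 and 7782 in control and 1963 and 2031 in KO (log2 fold change -1.90, standard error 0.10).

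Of the remaining falls, RAB25, a small GTPase of epithelial membrane recycling, had 1967 and 2319 in control and 674 and 604 in KO (log2 fold change -1.75, standard error 0.13), and GNAI1, an inhibitory G protein subunit, had 743 and 809.7 in control and 172 and 201 in KO (log2 fold change -2.05, standard error 0.16). The fall of SLC6A3, the dopamine transporter, was from 203 and 193 in control to 41.8 and 54.6 in KO (log2 fold change -2.03, standard error 0.26). In these 3 genes no KO sample reached even the lower control, which the choice of genes required. CD163L1, a scavenger receptor family member, CADPS2, a factor of vesicle release, SGK2, a serum- and glucocorticoid-regulated kinase, and GJB1, a gap junction connexin, had log2 fold changes between -2.34 and -1.57. VCX (-2.24) and VCX3B (-2.11) are near-identical X-linked copies, and their counts are uncertain. All 30 rises and falls passed as well without control replicate 1 and without control replicate 2. Of the 15 rises, 14 passed in DHT too and 11 in FM, and of the 15 falls 15 and 14.

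**Figure D2:**
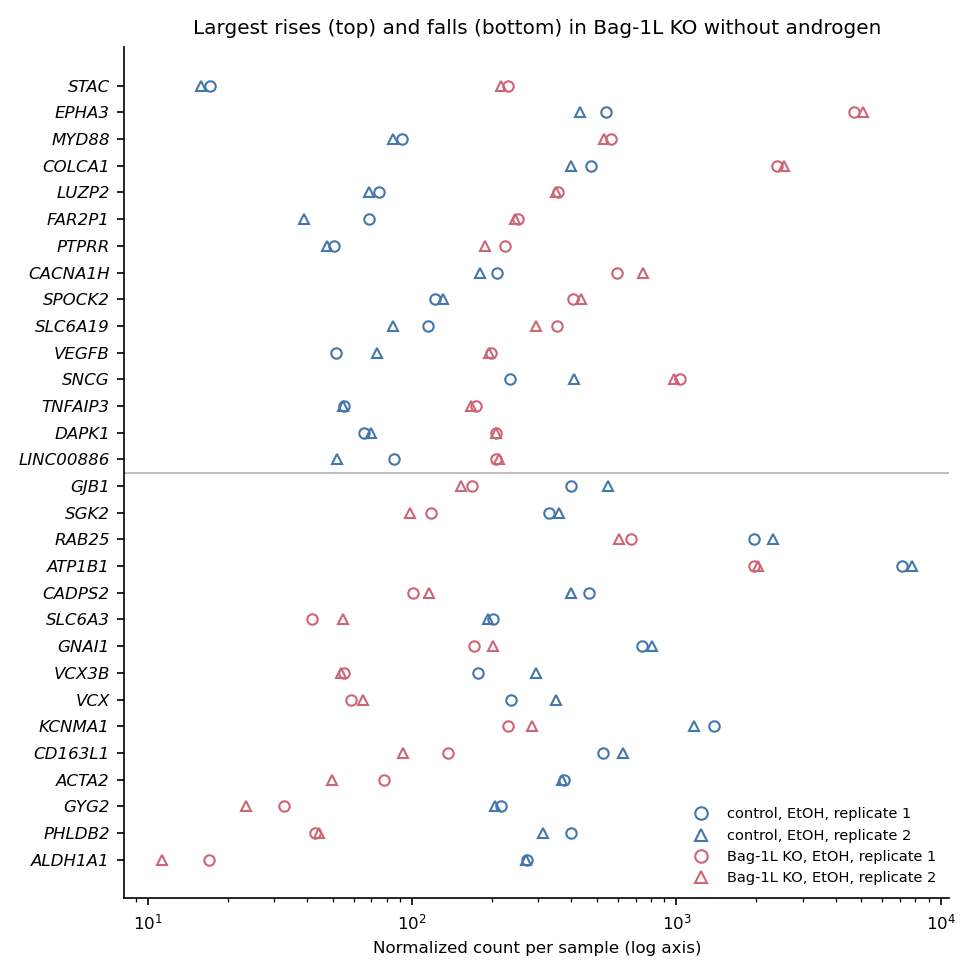
Normalized counts (log axis) of the 15 genes with the largest rises and the 15 with the largest falls in Bag-1L KO without androgen, with 1 symbol per sample: blue for control, red for KO, circles for replicate 1 and triangles for replicate 2. Genes were chosen so that both KO samples lie on one side of both controls. The controls are spread most in FAR2P1, SNCG, LINC00886 and the VCX genes.

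Genes of Toll-like receptor and NF-kB signalling were described as a group. This list and those below were chosen with earlier results of these data known, and some hold genes named above among the largest changes. Their shares beside those of all genes are therefore descriptions and no test of enrichment. In this pathway MYD88 links receptors to kinases that degrade the inhibitor encoded by NFKBIA and release NF-kB, which in turn drives its own inhibitors. Of 28 members tested, 5 rose (17.9%, against 2.8% of all genes) and none fell, with a median log2 fold change of 0.13 beside -0.01 over all genes. NFKBIA, which encodes IkB-alpha, had 944 and 1096 in control and 2137 and 1884 in KO (log2 fold change 0.98, standard error 0.12, adjusted p = 1.08e-13). Normalized counts of TNFAIP3, the deubiquitinase A20, which limits NF-kB activation, came to 55.2 and 54.7 in control and 174 and 167 in KO (log2 fold change 1.63, standard error 0.22, adjusted p = 7.09e-12). NFKBIZ, a nuclear IkB protein, had 119.9 and 80.6 in control and 239 and 247 in KO (log2 fold change 1.27, standard error 0.24, adjusted p = 7.05e-06), and RELB, an NF-kB subunit of the noncanonical pathway, had 44.7 and 41.8 in control and 137 and 126 in KO (log2 fold change 1.60, standard error 0.30, adjusted p = 7.56e-06). In these genes and MYD88 the KO samples lay above both controls, and all 5 passed with either control left out. NFKB2 (0.50, adjusted p = 0.00108) and IKBKB (0.38, adjusted p = 0.0126) were under the 1.5-fold minimum, and the subunits RELA (-0.01), NFKB1 (-0.17) and REL (-0.01) did not pass.

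The promoters of NFKBIA, TNFAIP3 and NFKBIZ, known targets of NF-kB, are shown because these members rose together. NF-kB was searched on both strands as GGGNNTTTCC, and matches are in capitals. The 300-base windows, from 250 bases before to 50 after the start of transcription, are from RefSeq on GRCh38.p14, a different build from that of the counts. The motif is in 1.92% of 27305 such windows and in 6 of the 24 list members with an entry. Among the 4 risen members with one, it is in NFKBIA (chr14:35404700-35404999, minus strand), TNFAIP3 (chr6:137867009-137867308, plus strand) and NFKBIZ (chr3:101827740-101828039, plus strand), and MYD88 has no match in its window.
NFKBIA promoter: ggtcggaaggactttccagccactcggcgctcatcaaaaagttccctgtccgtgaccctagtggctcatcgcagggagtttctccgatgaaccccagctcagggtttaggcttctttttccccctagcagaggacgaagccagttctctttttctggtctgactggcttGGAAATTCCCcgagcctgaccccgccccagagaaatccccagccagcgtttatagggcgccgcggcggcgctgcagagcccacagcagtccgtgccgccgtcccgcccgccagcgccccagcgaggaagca
TNFAIP3 promoter: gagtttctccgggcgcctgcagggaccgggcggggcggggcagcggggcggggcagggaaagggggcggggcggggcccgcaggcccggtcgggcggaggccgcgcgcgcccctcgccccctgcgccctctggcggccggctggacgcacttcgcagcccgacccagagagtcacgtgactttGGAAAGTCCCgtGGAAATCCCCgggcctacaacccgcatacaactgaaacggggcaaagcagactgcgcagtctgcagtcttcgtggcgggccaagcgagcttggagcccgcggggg
NFKBIZ promoter: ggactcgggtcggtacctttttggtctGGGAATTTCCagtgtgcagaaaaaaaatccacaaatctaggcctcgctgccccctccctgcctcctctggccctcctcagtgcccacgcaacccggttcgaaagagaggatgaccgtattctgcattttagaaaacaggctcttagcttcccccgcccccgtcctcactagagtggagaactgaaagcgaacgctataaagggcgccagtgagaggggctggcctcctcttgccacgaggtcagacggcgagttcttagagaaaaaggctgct
A match is a description of the letters, and binding was not measured here.

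The unfolded protein response raises chaperones and folding enzymes of the endoplasmic reticulum (ER) when unfolded proteins build up there. Of 23 genes of this response and of ER folding, 8 fell (34.8%, against 2.31% of all genes) and none rose, 22 of the 23 had a negative value, and the median was -0.54. HSP90B1 (ENSG00000166598, chromosome 12, 104323885 to 104347709), the ER form of HSP90, had 63544 and 76969 in control and 40042 and 38290.1 in KO (log2 fold change -0.84, standard error 0.13, adjusted p = 2.78e-09). HERPUD1, a part of the machinery that removes misfolded ER proteins, had 5231 and 5991 in control and 3102 and 3012 in KO (log2 fold change -0.88, standard error 0.10, adjusted p = 1.79e-15). Counts of PDIA4, a disulfide isomerase, came to 24676 and 27188 in control and 14941 and 15168 in KO (log2 fold change -0.78, standard error 0.09, adjusted p = 2.08e-15). The KO replicates were within a few percent of each other in these genes, and both were below both controls. SEC24D, a coat protein of vesicles leaving the ER, DNAJB9, an ER cochaperone, MANF, CRELD2 and EDEM1 also fell, by 0.89, 0.77, 0.75, 0.72 and 0.63 on the log2 scale. Without control replicate 1 the members lower were 13 (5.12% of all genes) with a median of -0.61, and without control replicate 2 they were 7 (2.31% of all genes) with a median of -0.39. CRELD2 (-0.30) and MANF (-0.46) did not pass without control replicate 2, and EDEM1 (-0.56) did not without control replicate 1. In DHT 16 members fell, and in FM 1. Of all genes, 7.98% passed in DHT and 8.01% in FM, in either direction. In a fit of the 4 EtOH samples alone 7 fell, and 4 with the replicate numbers as a block. Over all genes, 506 and 198 passed in these fits, in either direction. The blocked fit of 4 samples leaves 1 residual degree of freedom.

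The amino acid response is driven by ATF4 when amino acids are short or the ER is stressed. Of 25 of its genes tested, 7 fell (28%, against 2.31%) and none rose, with a median of -0.49. SLC7A11, the cystine transporter, had 5222 and 4138 in control and 2157 and 2217 in KO (log2 fold change -1.10, standard error 0.14, adjusted p = 4.21e-13). ASNS, asparagine synthetase, had 6203 and 7252 in control and 4283 and 4028 in KO (log2 fold change -0.70, standard error 0.12, adjusted p = 1.76e-07). PSAT1, of serine synthesis, had 7497 and 7974 in control and 4971 and 5119.5 in KO (log2 fold change -0.62, standard error 0.09, adjusted p = 4.24e-10). These 3 genes had both KO samples below both controls. The neutral amino acid transporter SLC1A4, CHAC1, which degrades glutathione, the stress factor ATF3 and MTHFD2, of mitochondrial folate metabolism, were at -0.75, -0.75, -0.63 and -0.59. The list median was -0.63 without control replicate 1 and -0.32 without control replicate 2. Without control replicate 2, ASNS (-0.58), PSAT1 (-0.57), MTHFD2 (-0.56) and CHAC1 (-0.44) stayed under the fold minimum. ATF3 (-0.42) did so without control replicate 1. In DHT 15 members fell (median -0.68), and in FM 1 (median -0.07). Of all genes, 7.98% passed in DHT and 8.01% in FM, in either direction. In a fit of the 4 EtOH samples alone 5 fell, and 1 with the replicate numbers as a block. Over all genes, 506 and 198 passed in these fits, in either direction. ATF3 is also on the list of immediate early genes, and SLC7A11 on that of NRF2 and glutathione genes. The promoters of HSP90B1 (chr12:103930160-103930459, plus strand) and ASNS (chr7:97872359-97872658, minus strand), from the same RefSeq build, are printed with the matches in capitals of the ER stress element, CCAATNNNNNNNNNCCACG, whose first part is also the CCAAT box, and of the ATF4 motif, TGATGNAA.
HSP90B1 promoter: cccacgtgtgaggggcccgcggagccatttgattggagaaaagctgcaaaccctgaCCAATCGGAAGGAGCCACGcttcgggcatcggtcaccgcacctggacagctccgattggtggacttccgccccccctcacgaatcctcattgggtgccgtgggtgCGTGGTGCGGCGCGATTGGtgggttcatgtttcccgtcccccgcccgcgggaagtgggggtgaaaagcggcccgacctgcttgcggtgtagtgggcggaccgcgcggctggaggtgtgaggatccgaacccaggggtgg
ASNS promoter: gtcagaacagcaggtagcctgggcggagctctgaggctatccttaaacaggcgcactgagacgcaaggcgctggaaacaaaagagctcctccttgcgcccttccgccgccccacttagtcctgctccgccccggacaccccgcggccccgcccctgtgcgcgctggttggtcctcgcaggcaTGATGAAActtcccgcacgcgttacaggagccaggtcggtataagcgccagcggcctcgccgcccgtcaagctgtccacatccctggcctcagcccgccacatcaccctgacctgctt
Searched on both strands, the ER stress element is in 0.0806% of the 27305 promoters and in 6 of the 21 unfolded protein response members with an entry, 2 of them (HSP90B1 and CRELD2) among the 7 that fell. The ATF4 motif is in 3.67% of promoters and in 6 of the 21 amino acid response members, of which ASNS, ATF3 and CHAC1 fell.

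Cell cycle genes fell on both lists tested, and none rose. Fewer dividing cells and less of these RNAs per cell cannot be told apart in bulk RNA. Of 43 genes of G1/S and DNA replication, 16 fell (37.2%, against 2.31%) and none rose, 42 had a negative value, and the median was -0.53. CDC6 (ENSG00000094804, chromosome 17, 38444131 to 38460909), which loads the replicative helicase at origins, had 1779 and 1860.1 in control and 918 and 1009 in KO (log2 fold change -0.92, standard error 0.11, adjusted p = 1.64e-15). CDK6, a kinase of G1, had 307 and 279 in control and 132 and 140.2 in KO (log2 fold change -1.10, standard error 0.18, adjusted p = 5.72e-08). CDC45, a subunit of the replicative helicase, had 449 and 611 in control and 264 and 297 in KO (log2 fold change -0.91, standard error 0.16, adjusted p = 6.77e-07). In these genes the groups did not overlap, and the fall passed with either control left out. Thymidine kinase TK1 had 2936 and 4398 in control and 2100.2 and 2148 in KO (log2 fold change -0.79, standard error 0.16), with the controls farther from each other than control replicate 1 was from KO, and without control replicate 2 its value was -0.47 and did not pass. MCM5, MCM10, E2F1, E2F2, E2F8, ORC1, GINS2, GINS3, POLE2, FEN1, LIG1 and UNG also fell, by 0.62 to 0.68 on the log2 scale. Without control replicate 1 there were 21 lower members and 1 higher, with a median of -0.58, and without control replicate 2 there were 8 lower, with a median of -0.42.

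Of 40 genes of G2/M and mitosis, 13 fell (32.5%, against 2.31%), all 40 had a negative value, between -0.18 and -0.85, and the median was -0.51. MYBL2, a transcription factor of the mitotic programme, had 2128 and 2512 in control and 1191 and 1372 in KO (log2 fold change -0.85, standard error 0.12, adjusted p = 1.67e-10). TOP2A, topoisomerase II alpha, had 4238 and 3557 in control and 2232 and 2461 in KO (log2 fold change -0.73, standard error 0.12, adjusted p = 8.52e-08). CDC25C, the phosphatase that activates CDK1, had 423 and 462 in control and 234 and 288 in KO (log2 fold change -0.76, standard error 0.16, adjusted p = 5.61e-05). These 3 passed with either control left out. AURKB, PTTG1, MAD2L1, BIRC5, CCNB1, DLGAP5, CENPF, TTK, KIF2C and CCNA2 fell by 0.59 to 0.78. The lower members were 15 without control replicate 1 and 11 without control replicate 2, with medians of -0.46 and -0.50. In a fit of the 4 EtOH samples alone 8 G1/S and 12 G2/M members fell, and 1 of each list with the replicate numbers as a block. Over all genes, 506 and 198 passed in these fits, in either direction. In DHT 5 of the G1/S and 10 of the G2/M members fell, and in FM 2 and none. Of all genes, 7.98% passed in DHT and 8.01% in FM, in either direction, so the calls in FM are not read as a change of either list. For CDC6 (chr17:40287629-40287928, plus strand) the RefSeq promoter is printed with its match to the E2F motif, TTTNNCGC, in capitals, since E2F is the known factor of this group.
CDC6 promoter: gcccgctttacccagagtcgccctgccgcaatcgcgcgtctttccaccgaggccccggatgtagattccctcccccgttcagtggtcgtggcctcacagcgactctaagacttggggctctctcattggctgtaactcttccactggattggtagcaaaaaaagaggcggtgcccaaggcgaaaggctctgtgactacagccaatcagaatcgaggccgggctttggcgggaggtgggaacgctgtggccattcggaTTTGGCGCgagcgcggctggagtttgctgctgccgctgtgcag
On either strand this motif is in 6.9% of the 27305 promoters and in 21 of the 36 G1/S members with an entry, 7 of them among the 14 that fell. The cell cycle homology region, TTTGAA, is in 15.4% of promoters and in 21 of the 33 G2/M members, 4 of them among the 11 that fell.

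Androgen-induced genes were examined next. Of 33 androgen-induced genes, 6 fell (18.2%, against 2.31%) and 2 rose (6.06%, against 2.8%), with a median of -0.32. TSC22D3, the leucine zipper protein GILZ, had 2385 and 3239.8 in control and 1519 and 1465 in KO (log2 fold change -0.91, standard error 0.14, adjusted p = 1.73e-08). MAF, a transcription factor, had 279 and 282 in control and 125 and 129 in KO (log2 fold change -1.14, standard error 0.16, adjusted p = 8.58e-11). KO was below control in every sample of both genes, and the falls passed with either control left out. AZGP1 (-1.93), a secreted glycoprotein, NDRG1 (-0.63) and CENPN (-0.63), a centromere protein, fell too, the last 2 under the fold minimum without control replicate 2. STEAP2, a metalloreductase, rose, with 7733 and 5709 in control and 13138 and 13574 in KO (log2 fold change 0.99, standard error 0.15, adjusted p = 3.87e-09). KLK15, a kallikrein, had 25.7 and 61.7 in control and 92.7 and 90.3 in KO (log2 fold change 1.07, standard error 0.36, adjusted p = 0.0337), and without control replicate 1 its value was 0.57 and did not pass. KLK3, which encodes prostate-specific antigen, had 5354 and 7094 in control and 7848 and 7546 in KO, with adjusted p = 0.139, and KLK2 (0.50) and FKBP5 (-0.58), an androgen-induced immunophilin, were under the fold minimum. Since the cells had no androgen, these values are levels without ligand and not responses to it.

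Heat shock chaperones and cochaperones, the partners of Bag-1 proteins, did not pass. None of 32 tested was called, and their values lay between -0.58 and 0.37, with a median of -0.09. HSPA8, the constitutive HSP70, had 76630.4 and 78584 in control and 80866 and 80151 in KO (log2 fold change 0.05, standard error 0.08). HSP90AA1 had 66615 and 77968 in control and 65074 and 64289 in KO (log2 fold change -0.16, standard error 0.12), and HSPA1B, a stress-induced HSP70 with a near-identical copy, had 2595 and 3658 in control and 3373 and 3262 in KO (log2 fold change 0.09, standard error 0.15). The groups overlapped for HSPA1B, and for HSPA8 and HSP90AA1 the lines differed by less than 1.5-fold in any pair of samples. The list median was -0.22 without control replicate 1 and 0.02 without control replicate 2, with 1 member lower in each case.

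Enzymes that make, convert or inactivate androgens included 5 rises among 20 tested (25%, against 2.8%) and no fall, with a median of 0.19. UGT2B15 and UGT2B17 couple androgens to glucuronic acid and so inactivate them. UGT2B15 had 101 and 121 in control and 235 and 226 in KO (log2 fold change 1.05, standard error 0.18, adjusted p = 7.94e-07), and UGT2B17 had 93.3 and 81.6 in control and 169.6 and 186 in KO (log2 fold change 1.03, standard error 0.21, adjusted p = 5.92e-05). UGT2B11 had 23.8 and 21.9 in control and 83.6 and 64.9 in KO (log2 fold change 1.69, standard error 0.28, adjusted p = 1.28e-07). The 3 genes belong to a cluster of near-identical copies, so reads could be assigned to the wrong member or left out, and single values are uncertain. HSD17B6, an oxidoreductase that can regenerate DHT from its metabolite androstanediol, had 47.6 and 55.7 in control and 106 and 82.8 in KO (log2 fold change 0.87, standard error 0.28, adjusted p = 0.0228) and passed only with both controls in the fit. CYP11A1, which cleaves the side chain of cholesterol, had 2.85 and 3.98 in control and 20.3 and 18.8 in KO (log2 fold change 2.52, standard error 0.64), with the controls near the floor of detection, so the size of its change is uncertain. In a fit of the 4 EtOH samples alone 3 of these enzymes rose, and none with the replicate numbers as a block. These fits passed 506 and 198 genes in all, in either direction. The reductases SRD5A1 (0.13) and SRD5A3 (0.04) did not pass.

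Among receptors and ligands of cell contact, 3 of 21 ephrin receptors and ephrins rose (14.3%, against 2.8%) and 2 fell (9.52%, against 2.31%). Besides EPHA3, the ligand EFNA5 rose, with 5796 and 5659 in control and 13769.7 and 13444 in KO (log2 fold change 1.25, standard error 0.08, adjusted p = 1.15e-45), and so did EPHB6, a receptor without kinase activity, with 128 and 146 in control and 331 and 301 in KO (log2 fold change 1.20, standard error 0.20, adjusted p = 1.35e-07). The ligand EFNB2 fell, with 966 and 823 in control and 347 and 379 in KO (log2 fold change -1.30, standard error 0.13, adjusted p = 1.4e-19), and the receptor EPHA7 fell, with 92.3 and 90.5 in control and 29.4 and 38.6 in KO (log2 fold change -1.41, standard error 0.26, adjusted p = 2.25e-06). These 5 changes passed with either control left out. Of 29 genes of ion channels and their adaptors, 4 rose (13.8%, against 2.8%) and 2 fell (6.90%, against 2.31%). Besides STAC and CACNA1H these were KCNMB4, a regulatory subunit of the KCNMA1 channel (1.44), and KCNJ3, an inward rectifier (2.09, with at most 57.4 normalized counts in a sample and no call without control replicate 2), among the rises, and KCNMA1 and KCNN2, a calcium-activated potassium channel (-1.06), among the falls. KCNMA1 thus fell while its subunit KCNMB4, with 49.5 and 40.8 in control and 141 and 104 in KO, rose. The median of the channel list was 0.13, and -0.06 without control replicate 2.

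Genes of lineage and differentiation gave few calls. Of 18 retinoid enzymes and receptors, 2 fell (11.1%, against 2.31%), ALDH1A1 and ALDH1A3 (log2 fold change -0.62, standard error 0.15, adjusted p = 0.00111), both retinaldehyde dehydrogenases, and the receptors RARA, RARG, RXRA and RXRB lay between 0.00 and 0.31. Of 11 neural and neuroendocrine genes tested, 2 rose (18.2%, against 2.8%). DDC, aromatic L-amino acid decarboxylase, had 2232 and 2596 in control and 6767 and 6231 in KO (log2 fold change 1.43, standard error 0.11, adjusted p = 1.74e-32), and ENO2, neuron-specific enolase, had 167 and 145 in control and 352 and 348 in KO (log2 fold change 1.16, standard error 0.19, adjusted p = 8.13e-08). The neuroendocrine markers CHGA and INSM1 had at most 4 counts in any sample, and SYP did not pass (-0.06). Of 16 luminal lineage transcription factors, OVOL1 rose (1.04) and KLF5 fell (-0.73), the latter with no call without control replicate 1. The luminal calls were 6.25% of that list in each direction, against 2.8% and 2.31% of all genes. The medians of the retinoid, neural and luminal lists were -0.05, 0.23 and -0.07.

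On the lists of signalling and survival genes, calls were scattered. Of all genes 2.8% were higher and 2.31% lower. On these 9 lists at most 15.8% were higher (BCL2 family) and at most 8.33% lower (insulin and IGF, and immediate early genes). Such shares rest on few genes, and no list is read as changed. Of 32 genes of TGF-beta, BMP and ID proteins, the pseudoreceptor BAMBI (1625 and 2141 in control and 674 and 605 in KO; log2 fold change -1.56, standard error 0.16) and the receptor BMPR1B (-1.62) fell, and ID1 rose (1.02). Of 24 insulin and IGF genes, IGF1 rose, with 25.7 and 33.8 in control and 97.2 and 96.9 in KO (log2 fold change 1.71, standard error 0.28), and IGF1R (-0.62) and IGFBP3 (-0.77) fell. The receptor and its ligand thus moved in opposite directions. The Wnt receptors FZD5 (-0.77) and FZD8 (-0.70) fell among 33 Wnt genes, JAG1 rose (0.67) and HES1 fell (-0.92) among 24 Notch genes, and DUSP4 (-0.63) fell beside ATF3 among 24 immediate early genes. In the BCL2 family (19 tested) the death-promoting genes BOK (0.85), BIK (0.69) and BMF (0.87) rose, 15.8% of the list against 2.8% of all genes, and BCL2L12 fell (-0.60). The 2 of 25 p53 targets that rose, TP53INP1 (0.84) and RRM2B (0.60), both lie on chromosome 8. TAPBP (0.76) and IRF1 (0.90) rose among 30 interferon-stimulated and antigen presentation genes, and IRF1 had no call when either control was left out. None of 31 cytokine receptor, SOCS and STAT genes passed. The medians of these 9 lists lay between -0.22 and 0.13. BCL2L12, HES1, JAG1, FZD8 and RRM2B had no call without control replicate 2, and IGF1R and ATF3 had none without control replicate 1.

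Calls on metabolic and adhesion lists were few. Of all genes 2.8% were higher and 2.31% lower. On these 7 lists at most 6.67% were higher and at most 10% lower, both for glycolysis and hypoxia. On the fatty acid and junction lists 3.33% and 2.94% were higher, near the share of all genes. No list is read as changed. Of 30 genes of glycolysis and hypoxia, the lactate transporter SLC16A3 rose, with 89.5 and 118 in control and 289 and 318 in KO (log2 fold change 1.55, standard error 0.21), as did EPAS1, a hypoxia-inducible factor (0.70), and the glycolytic enzymes PFKP (-1.43) and HK2 (-0.69) fell beside NDRG1. Of 30 fatty acid genes, the elongases ELOVL2, with 761 and 706 in control and 318 and 337 in KO (log2 fold change -1.16, standard error 0.13), and ELOVL6 (-0.93) fell, and ACSL4 rose (0.87). GYG2 was the 1 call of 22 glycogen genes, and GPX8 (-1.42) and SLC7A11 those of 33 NRF2 and glutathione genes. Of 34 cadherins, integrins and junction genes, DSG2 rose (1.05), and CDH7 (-1.44) and CLDN8 (-0.90) fell. None of 24 cholesterol synthesis genes (median -0.19) and none of 16 polyamine genes (median 0.01) passed. The medians of these 7 lists lay between -0.20 and 0.01. EPAS1 and CLDN8 had no call without control replicate 2, and CDH7 had none without control replicate 1.

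**Figure D3:**
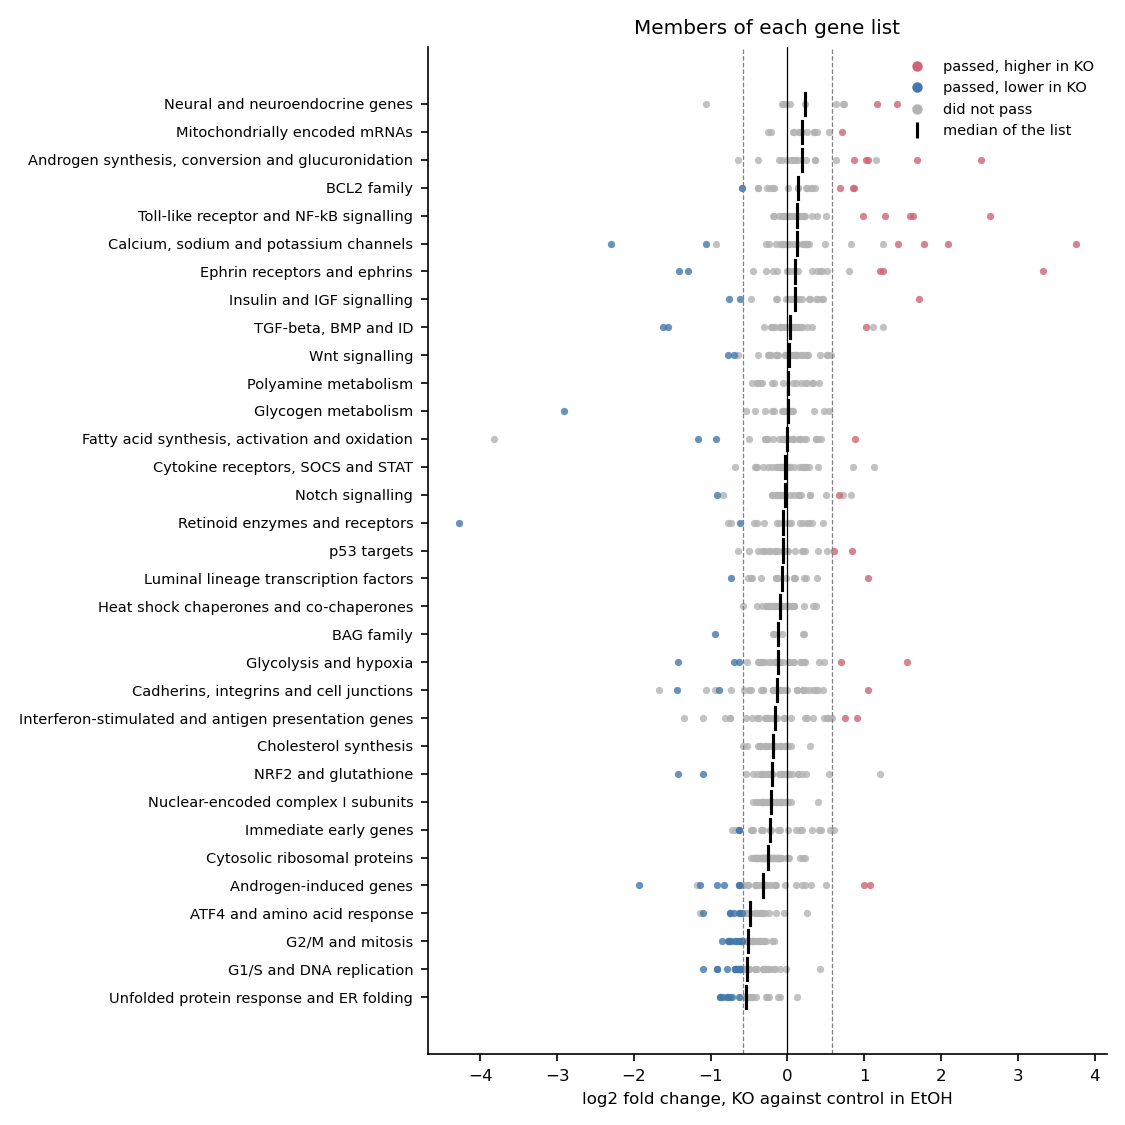
Log2 fold change of each tested member of 33 gene lists, KO against control in EtOH, with 1 point per gene, coloured where it passed, a bar at each list's median and dashed lines at the 1.5-fold minimum. The unfolded protein response, G1/S, G2/M and amino acid response lists have medians between -0.54 and -0.49, and the Toll-like receptor and NF-kB list has 5 rises, the highest being MYD88.

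For some lists the sign rested on which control sample was used. The 36 nuclear-encoded complex I subunits had no call and a median of -0.21, which was -0.48 without control replicate 1 and 0.11 without control replicate 2. The 77 cytosolic ribosomal protein genes had no call and a median of -0.25, which became -0.49 with 20 falls without control replicate 1 and 0.05 with none without control replicate 2. The 13 mRNAs encoded in mitochondrial DNA ran the other way, at 0.19, 0.37 and -0.05. MT-CO1, a subunit of cytochrome oxidase, was their 1 call, with 129071 and 97744 in control and 164619 and 205286 in KO (log2 fold change 0.71, standard error 0.16, adjusted p = 0.000417), and was at 0.52 without control replicate 2. Between the controls themselves, complex I and ribosomal protein genes were higher in replicate 2 by medians of 0.53 and 0.53 on the log2 scale, whereas the median for mitochondrial mRNAs was -0.41. No direction between KO and control is given for these 3 lists. For the unfolded protein response, amino acid response, G1/S and G2/M lists the shift between controls was between 0.05 and 0.23, and the medians were negative with either control left out.

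**Figure D4:**
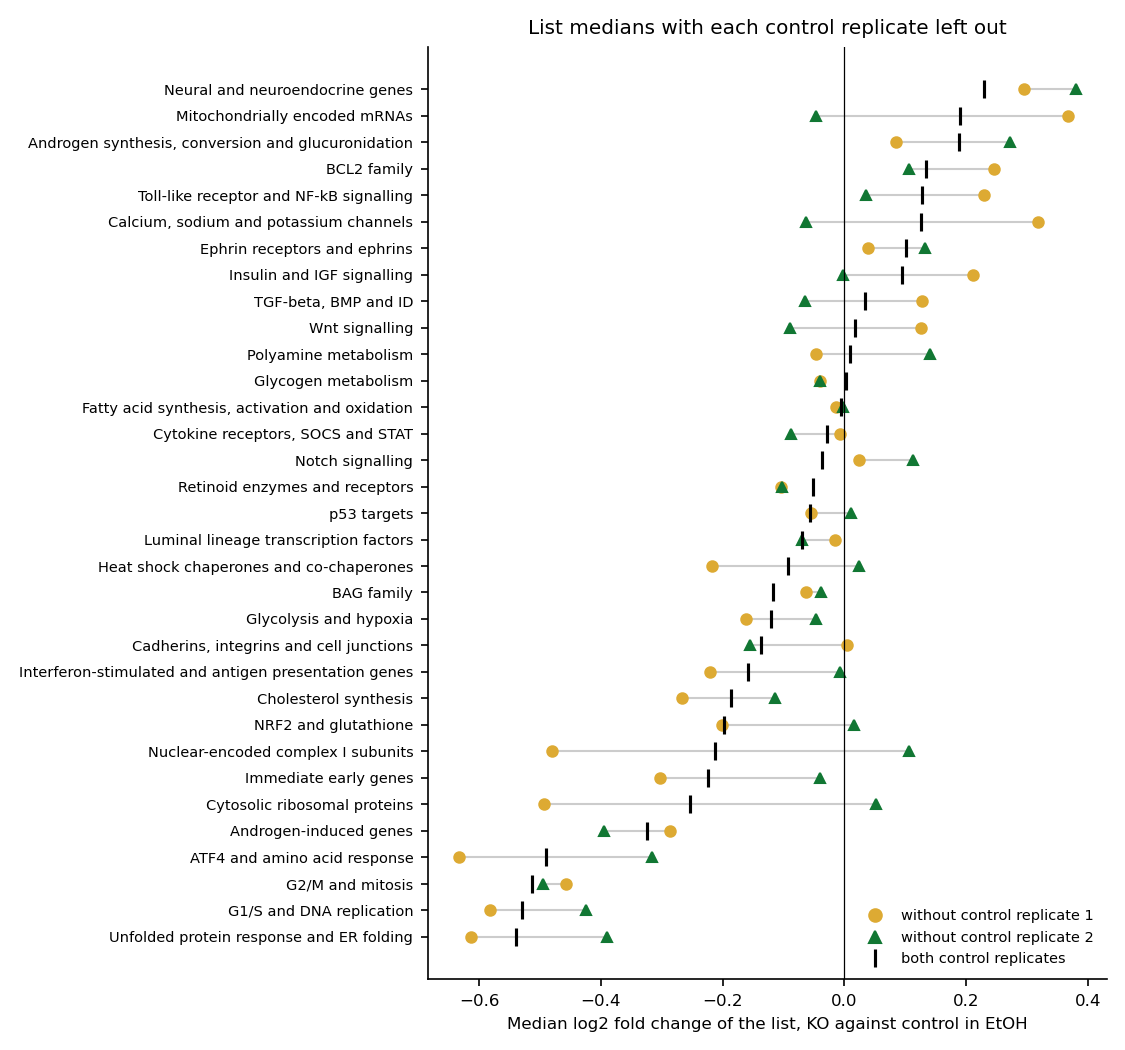
Median log2 fold change of each of 33 lists, KO against control in EtOH, with both controls (black bar), without control replicate 1 (yellow circle) and without control replicate 2 (green triangle). Complex I and ribosomal protein lists cross 0, from -0.48 to 0.11 and from -0.49 to 0.05, as do several lists with medians near 0, whereas the 4 lowest lists stay below 0.

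Whether differences between the lines were particular to the absence of androgen was tested as the KO difference in EtOH minus the mean of the KO differences in DHT and FM. Of 13478 genes tested, 54 passed (0.401%), with a higher value in EtOH for 26 and a lower one for 28, and 891 had an unadjusted p under 0.05. Of the 844 genes called in EtOH, 220 passed neither in DHT nor in FM, and 16 of those 220 also passed this test of the difference. The total of 54 changed strongly when some single EtOH samples were left out, as described below. Of the genes whose counts averaged 100 or more, TNFAIP3 had the largest positive value (1.73, standard error 0.25, adjusted p = 1.04e-08), and its KO difference was 1.63 in EtOH, 0.13 in DHT and -0.33 in FM. CFAP69, a cilium and flagellum protein, had 222 and 204 in control and 436 and 469.6 in KO in EtOH (log2 fold change 1.09, standard error 0.15) beside -0.15 in DHT and -0.31 in FM (difference 1.32, standard error 0.18, adjusted p = 1.74e-09). OPTN, optineurin, an autophagy receptor that also binds NF-kB regulators, had 259 and 219 in control and 711 and 607 in KO in EtOH (log2 fold change 1.46, standard error 0.18) beside 0.53 and 0.09 (difference 1.15, standard error 0.23, adjusted p = 0.000419). In these 3 genes the KO samples stood above the controls in EtOH, and no call was made in DHT or FM. COLCA1 was at 2.50 in EtOH, 2.69 in DHT and 0.16 in FM (difference 1.07, standard error 0.21, adjusted p = 0.000103). UGT2B15 was at 1.05, 0.34 and -0.36 (difference 1.06, standard error 0.22, adjusted p = 0.000901), and UGT2B11, from the same gene cluster, rose in EtOH (1.69) and fell in DHT (-0.83) and FM (-0.85; difference 2.53, standard error 0.30, adjusted p = 1.2e-13). Without KO replicate 1 in EtOH, OPTN and UGT2B15 did not pass, nor did UGT2B15 with limma voom. NFKBIA passed this test too (0.64, adjusted p = 0.00465), and MYD88 (-0.20), RELB (0.92) and NFKBIZ (0.66) did not.

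In the other direction, several androgen-induced genes were relatively lower in KO without androgen. TMPRSS2, a membrane serine protease, had 1156 and 1321 in control and 857 and 804 in KO in EtOH (log2 fold change -0.58, standard error 0.12, under the fold minimum), whereas its KO difference was 0.81 in DHT and 0.83 in FM (difference -1.40, standard error 0.14, adjusted p = 7.54e-18). TRPM8, a cold-sensing cation channel, had 267 and 265 in control and 246 and 273 in KO, with overlapping groups, beside 1.18 and 1.19 (difference -1.21, standard error 0.16, adjusted p = 5.02e-10). ALDH1A3 fell in EtOH (-0.62), was not called in DHT (0.30) and rose in FM (0.90; difference -1.22, standard error 0.18, adjusted p = 2.51e-08). NHSL1 rose in all conditions, but less in EtOH, where it had 318 and 327 in control and 675 and 677 in KO (1.07, against 2.06 and 2.57; difference -1.25, standard error 0.16, adjusted p = 4.01e-11). PALMD, a cytosolic palmdelphin, had 206 and 185 in control and 91.6 and 97.9 in KO (log2 fold change -1.04, standard error 0.27) beside 0.42 and 0.39, and its difference (-1.45, standard error 0.35, adjusted p = 0.0115) did not pass in 9 alternative runs, among them thinned counts and the removal of control replicate 2, KO replicate 1 or KO replicate 2 in EtOH, and had no adjusted p without control replicate 1 in EtOH. Of the 33 androgen-induced genes 6 passed this test, among them TMPRSS2, TRPM8, CENPN and PMEPA1 (-0.66) with lower values in EtOH and ADAMTS1 (0.70) with a higher one. The EtOH values are the same as in the comparison above, so these are no independent measurement of it.

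**Figure D5:**
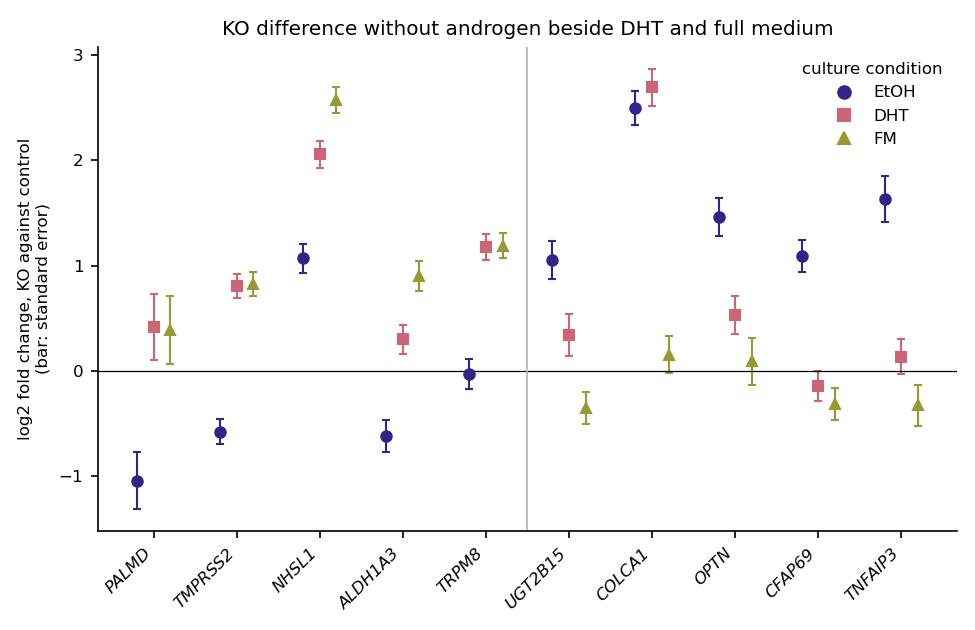
Log2 fold change, KO against control, in EtOH (circles), DHT (squares) and FM (triangles) for the 5 genes with the most negative (left) and the 5 with the most positive (right) difference of the EtOH value from the mean of the others; bars are standard errors. TNFAIP3, at 1.63 in EtOH against 0.13 and -0.33, is the farthest right, and TMPRSS2 and ALDH1A3 lie below 0 in EtOH and above 0 in DHT and FM.

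A gene was taken as on in one line and off in the other when both samples of one line had at least 50 normalized counts and both of the other at most 3 counts, and 2 genes with a symbol met this. EGFLAM, an extracellular matrix protein of synapses, had 59 and 57 counts in KO and 1 and 2 in control, a ratio of 40.8 after scaling (exact 95% interval 13.6 to 201, counting error only). CYP4F32P, a pseudogene of a family with near-identical copies, had 73 and 100 counts in control and 0 and 3 in KO, a ratio of 54.6 (18.4 to 267). Both were called in the same direction in DHT and FM.

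By position, genes on chromosome 8 stood above the rest, with a median log2 fold change of 0.26 over 581 genes tested and 46 of them higher (7.92%, against 2.8% of all genes), while the medians of the other chromosomes with at least 100 tested genes lay between -0.09 and 0.02. The chromosome 8 median was 0.28 in DHT and 0.26 in FM, and 0.27 with either control left out. In 10 Mb windows, all 15 on this chromosome had a positive median, between 0.12 and 0.36, and 9 of the 10 highest of the 283 windows of all chromosomes were there. The highest of all was on chromosome 13, from 20 to 30 Mb (median 0.36, with 5 of 40 genes higher), and over the whole of chromosome 13 the median was 0.02 and 6.13% of 261 genes were higher. TP53INP1, RRM2B, NDRG1 and DUSP4, described above, lie on chromosome 8, and the part of the chromosome 8 shift in their values was not tested.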

How the data were processed

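Poly(A) RNA from the 12 samples had been made into stranded TruSeq libraries. Per the submitters' processing notes and the study's methods, reads were processed with CASAVA 1.7, mapped to GRCh37 with TopHat2 2.0.11 and counted per gene with HTSeq 0.5.3p3 on an Ensembl annotation, whose release, like the strand setting, is not given in the sources used here, so that overlapping and antisense genes may share counts. The authors deposited unnormalized counts, 1 file per sample. The 5 tallies per file that name no gene were left out of library sizes and tests, and in the EtOH samples reads without a feature were between 4.44% and 5.62% of the gene counts and ambiguous ones between 8.53% and 9.95%. Of 63677 identifiers, 55665 were matched to GENCODE v44 lifted to GRCh37 for positions.

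DESeq2 1.42.0 (R 4.3.3), which the authors also used, was fitted to all 12 samples with a coefficient per group, so that the spread was shared by all groups, on genes with at least 10 counts in total. KO and control were compared by the Wald test with unshrunken fold changes and Benjamini-Hochberg adjustment. A gene passed at an adjusted p of at most 0.05 and a fold change of at least 1.5. The difference between conditions was a contrast of the KO difference in EtOH against the mean of those in DHT and FM. Samples were grouped by their labels. Named genes were BAG1, the 15 largest rises and 15 largest falls with normalized counts averaging 100 or more and groups apart, members of 34 lists (1055 of 1062 matched; 1 list and some genes are not reported here), the 5 most positive and 5 most negative differences between conditions, and genes on in one line and off in the other. The members and lists were chosen with earlier results of these data known. Alternatives were edgeR 4.0.16 (quasi-likelihood), limma 3.58.1 (voom with sample quality weights), other size factors, other count filters, thinned counts, a correction for GC content and length, a replicate block, a fit of the 4 samples alone, no fold minimum and the removal of each sample. The script was tested on simulated data. Promoters came from RefSeq on GRCh38.p14, and motifs were searched on both strands.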

Additional observations from a re-analysis of the deposited data

Results flagged for a closer look

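For 54 of 13478 genes the KO difference without androgen differed from the mean of the KO differences with DHT and in FM, by a direct test of that difference (DESeq2, Benjamini-Hochberg adjustment). It was higher in EtOH for 26 genes and lower for 28. Of the 54, 32 had also passed in EtOH, and the largest values were those of TNFAIP3 (1.73), CFAP69 (1.32), PALMD (-1.45, not past the threshold in 9 alternative runs) and TMPRSS2 (-1.40) among genes whose normalized counts averaged 100 or more. The EtOH contrast shares its 4 samples with the comparison of the report.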

How the results depend on the processing

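The number of genes past the threshold in EtOH, 844, was 506 in a fit of the 4 EtOH samples alone and 1620 with no fold minimum. When each sample was left out in turn it ranged from 483 to 1430. Under edgeR, TMM size factors, other count filters, thinned counts, the correction for GC content and length, and limma voom it lay between 711 and 1034. For the difference between conditions, 54 genes passed, against 35 with edgeR and 27 with limma voom, and leaving out each sample in turn gave 26 to 623, the highest without control replicate 1 in EtOH. The shared replicate numbers were not taken as pairs, since not every correlation of the replicate differences between groups was above 0.1. They lay between -0.41 and 0.69, and the 6 of 15 above 0.1 were those among control in EtOH, control in DHT, KO in DHT and KO in FM, whereas KO in EtOH had -0.41 with its control. With the replicate block in the fit of all 12 samples 823 and 55 genes passed, and with the replicate block in the fit of the 4 EtOH samples 198 passed. The crossed replicate block, chosen after seeing the data, gave 416. Of the NF-kB list 5 members rose under every alternative run. The cause of these changes was not tested. Over 34 single genes and their alternatives no direction turned, and BAG1 (-0.57) lost its call without control replicate 2. Thinning every sample to the smallest total left 776 genes, but the EtOH samples had between 20826843 and 25665927 gene counts, so this changed depth little and does not show what depth limits.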

Other observations

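The 7 desmosomal cadherin genes lie side by side on chromosome 18, and 5 of them rose in KO without androgen. They were looked at together only after the value of DSG2 had been seen. DSG2, the desmoglein of simple epithelia, had normalized counts of 28978 and 19579 in control and 48481 and 52004 in KO (log2 fold change 1.05, standard error 0.17, adjusted p = 2.66e-08; DESeq2). DSC1 had 210.3 and 180.0 in control and 491 and 529.8 in KO (log2 fold change 1.39, standard error 0.16, adjusted p = 1.27e-15), and DSC3, desmocollin 3, had 80.9 and 62.7 in control and 192 and 179.7 in KO (log2 fold change 1.37, standard error 0.22, adjusted p = 9.29e-08). Both KO samples lay above both controls in the 3 genes. DSG1 (1.41) and DSG4 (1.93) rose too, DSG4 from 27.6 and 10.9 in control and with no call when either control was left out, while DSG3 (1.38, adjusted p = 0.143) and DSC2 (-0.31, adjusted p = 0.806) did not pass. Of all genes, 2.8% rose. In DHT the KO difference was called as higher for DSG2 (1.07), DSC1 (0.90), DSC3 (1.23) and DSG1 (0.85) as well. In FM these 4 genes had 0.16, 0.48, 0.12 and 0.62, without a call. DSG4 was called in neither (1.60 in DHT and 0.07 in FM), and DSC2 was called as lower in FM (-1.55).

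MYD88 rose, and none of the other 5 genes within 250 kb whose normalized counts averaged 50 or more passed, with values between -0.35 and 0.22, although XYLB passed as lower (-0.59) without control replicate 2. SLC6A3 fell (-2.03) and SLC6A19, within 250 kb of it on chromosome 5, rose (1.69), while their other 4 neighbours, among them CLPTM1L (-0.21) and LPCAT1 (-0.09), did not pass. These neighbourhoods were likewise chosen after the values had been seen.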
